A study of Mus musculus with 2 samples.

Results

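The genes described here are 38 members of the complement, coagulation and fibrinolysis systems, taken by their symbols in GENCODE release M21 from the 55401 gene identifiers counted. All 38 were matched, 20 of complement, 11 of coagulation and 7 of fibrinolysis, serpins and protease inhibitors. RNA sequencing was done on hearts of C57BL/6 mice with transverse aortic constriction (TAC), an operation that narrows the aorta and makes the left ventricle pump against higher pressure. The TAC group had the operation, and the dioscin group had the operation and dioscin, a steroidal saponin from yam plants, which the treatment protocol gives for 4 weeks after surgery. That protocol has the same wording for both samples, so the groups rest on the treatment label. Each group was 1 library, called the TAC library and the dioscin library below, and with no replicates analysed here, differences between mice were not measured. The age and sex of the mice, the dose of dioscin and the number of hearts in a library are not given in the sources used here, and hearts without TAC were not analysed here. The 2 libraries held 16782741 and 17612259 counts in genes.

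Complement is a cascade of plasma proteases that marks cells and debris for removal. The classical pathway starts with C1, the lectin pathway with proteases bound to sugar-recognising lectins, and the alternative pathway amplifies both, and all lead to cleavage of C3, to the attractant fragments C3a and C5a and to a pore built from late components. Coagulation turns thrombin on through tissue factor and its downstream factors, and fibrinolysis dissolves the resulting fibrin through plasmin. The liver secretes most of the circulating proteins, while macrophages, fibroblasts and endothelial cells of the heart make some of them and many of the receptors and inhibitors on cell surfaces.

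The dioscin library stood apart from the TAC library in markers of several cell types, and those values stand beside every ratio below. The labelled tissue, heart, matched its markers in both libraries. Summed over 6 heart muscle genes, the list called ventricular muscle, the level was 42924 CPM with TAC alone and 47409.7 CPM with dioscin. Myh6 held 20675 and 22659.5 CPM of these sums, and the list does not separate ventricle from atrium. CPM divides a gene's count by the size of its library, scaled by the trimmed mean of M-values. Of 5 atrial muscle genes, Mybphl was at 0 in the TAC library. The summed level of the 5 was 592 CPM with TAC alone (Nppa 588) and 17319 CPM with dioscin (Nppa 12663). For 8 mesothelial genes it was 18.5 CPM with TAC alone and 153 CPM with dioscin, with Krt8 and Krt18 at 0 in the TAC library. Wt1 held most of the sum with TAC alone, at 15.98 CPM, and was at 15.42 CPM with dioscin. It was the only 1 of the 8 that did not lie higher with dioscin. For 6 adipocyte genes the summed level was 0.695 CPM with TAC alone and 15.0 CPM with dioscin. Cidec, Plin1 and Retn were at 0 in the TAC library and Lep at 0 in both. For 5 hepatocyte genes the summed level was 2.37 CPM with TAC alone and 72.9 CPM with dioscin. Alb, Apoa1 and Ttr were at 0 in the TAC library. Ahsg, fetuin-A, held 68.2 CPM of the hepatocyte sum in the dioscin library and Alb 1.52 CPM. The part of these cell types in the differences of complement and clotting genes was not tested, and since heart tissue was sequenced in bulk, more cells of a type and more RNA per cell cannot be told apart.

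**Figure D1:**
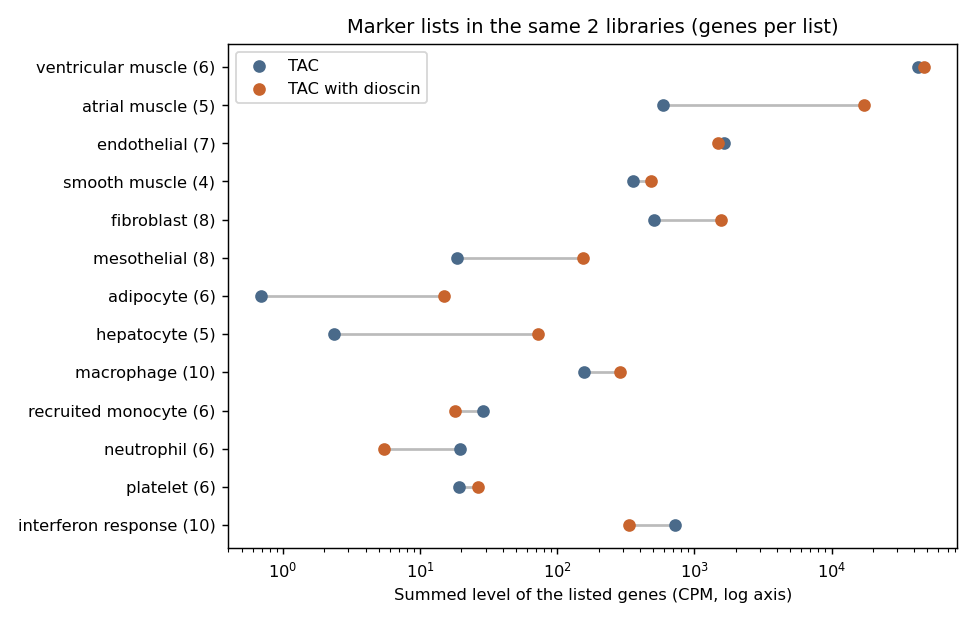
Summed level (CPM, log axis) of each marker list, with its number of genes in parentheses, in the TAC library and in the library of TAC with dioscin, 1 point per library. Atrial, mesothelial, adipocyte and hepatocyte lists lay higher in the dioscin library, ventricular muscle and endothelial lists were close in both, and neutrophil and interferon lists lay lower.

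Of the 38 members, 34 reached 1 CPM in at least 1 library, and 12 of these were higher and 1 was lower in the dioscin library. A gene is called higher or lower when either library had 1 CPM or more of it, when it differed at least 2-fold after 0.5 was added to both counts, and when a 95% counting interval of its ratio excluded 1. This size rule describes the 2 libraries and is no test of the treatment. It called 19.3% of 15697 genes, 10.5% of them higher and 8.77% lower, against 35.3% and 2.94% of the 34 members. Scaled by counts without mitochondrial genes, 1275 genes were higher and 2286 lower, against 1655 and 1377 here, and 10 members were higher and 1 lower. The median log2 ratio of dioscin over TAC was 0.77 over the 34 members and 0.66 over all 38, and it was 0.01 over all genes at or above 1 CPM. The ratio lay above 1 for 31 of the 34 members and below 1 for Cfp, Plau and Vtn, and F13a1 moved below 1 under that other scaling. Cfb, Cfi, F5 and F10 stayed under 1 CPM in both libraries. C2, C6 and F8 reached 1 CPM in the dioscin library alone, so C2 and F8 could be called in that direction only.

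**Figure D2:**
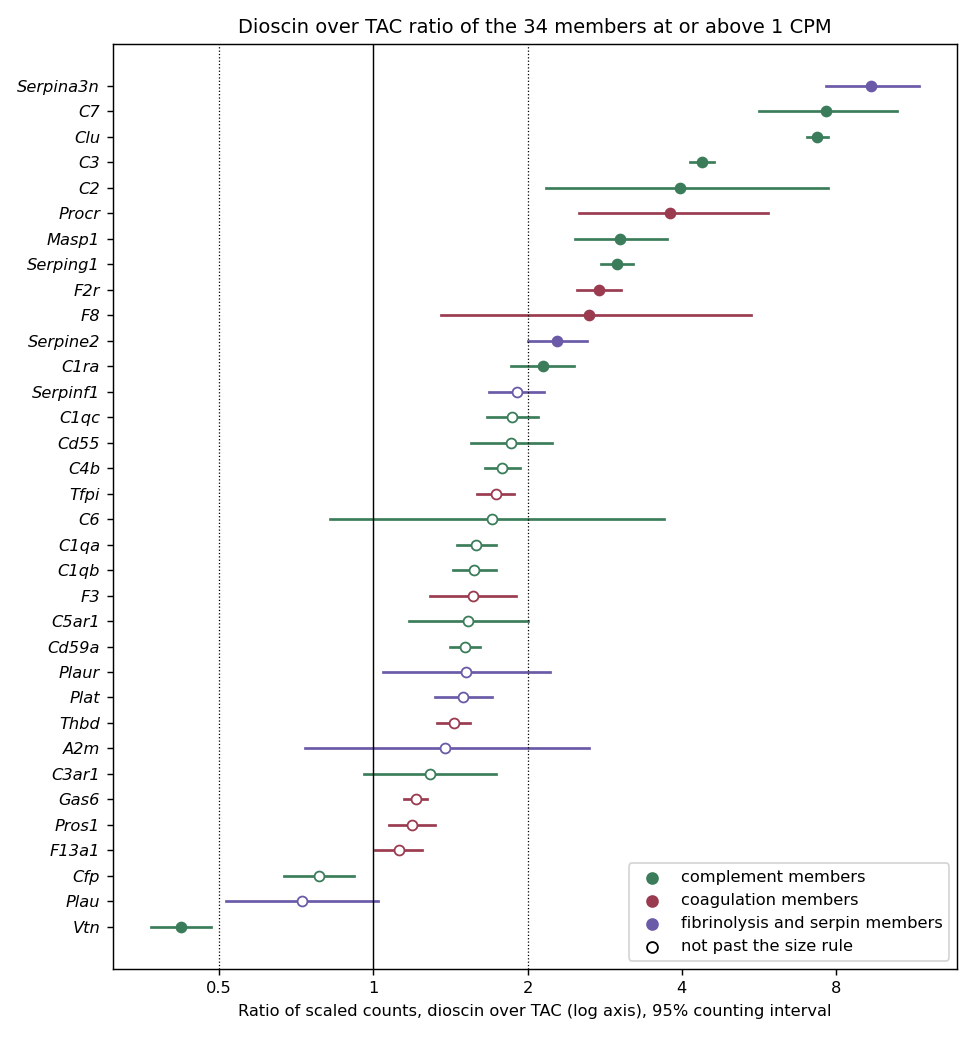
Ratio of scaled counts with dioscin over TAC alone (log axis) for the 34 members at or above 1 CPM, with 95% counting intervals. Filled points passed the size rule, dotted lines mark ratios of 0.5 and 2, and colours mark the 3 groups of members. Serpina3n, C7 and Clu had the highest ratios, and Vtn was the only filled point below 1.

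Clu, C3, C7 and Serpina3n had the highest ratios among the members. Clu encodes clusterin, a secreted chaperone that also binds terminal complement complexes (ENSMUSG00000022037.15; chromosome 14, 65968483 to 65981547 on GRCm38). It had 2114 counts (122 CPM) with TAC alone and 15421 (901 CPM) with dioscin, a ratio of 7.36 (7.03 to 7.71). C3 encodes the protein on which all complement pathways converge (ENSMUSG00000024164.15; chromosome 17, 57203970 to 57228136). It had 1711 counts (99.1 CPM) with TAC alone and 7422 (434 CPM) with dioscin, a ratio of 4.38 (4.15 to 4.62). Both intervals lay wholly above 4. C7, a component of the membrane attack pore (ENSMUSG00000079105.4; chromosome 15, 4988762 to 5063740), had 49 counts (2.84 CPM) with TAC alone and 371 (21.7 CPM) with dioscin, a ratio of 7.64 (5.66 to 10.5). Serpina3n encodes an acute-phase inhibitor of serine proteases (ENSMUSG00000021091.8; chromosome 12, 104406729 to 104414329). It had 102 counts (5.91 CPM) with TAC alone and 948 (55.4 CPM) with dioscin, a ratio of 9.38 (7.64 to 11.6), the highest of the 4. These 4 genes stood beside markers of fibroblasts of which 4 of 8 were also higher, against 10.5% of all genes. The summed level of the 8 was 504 CPM with TAC alone (Dcn 259) and 1564 CPM with dioscin (Dcn 1062). Col1a1, Col1a2, Pdgfra and Tcf21 were not called, at ratios of 1.05, 1.38, 1.40 and 1.17. Clu, C3, C7 and Serpina3n also stood beside the mesothelial, adipocyte and hepatocyte markers above. The part of all these cell types was not tested.

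The DNA before the start sites of these genes is shown because 3 of them, and Vtn, the member called lower, have an entry in the RefSeq promoter table (GRCm38.p6). Of the 38 members 26 had an entry, and of the 13 called members 9. Each line gives the 250 bases before the RefSeq start, 5′ to 3′ on the gene's strand, with capitals marking a match on either strand to the interferon-stimulated response element (ISRE, GAAA and GAAA with any 2 bases between), TTCNNNGAA (STAT site letters) or TGTTCT (the core of steroid receptor sites).
Serpina3n promoter (chr12:104406458-104406707, forward strand): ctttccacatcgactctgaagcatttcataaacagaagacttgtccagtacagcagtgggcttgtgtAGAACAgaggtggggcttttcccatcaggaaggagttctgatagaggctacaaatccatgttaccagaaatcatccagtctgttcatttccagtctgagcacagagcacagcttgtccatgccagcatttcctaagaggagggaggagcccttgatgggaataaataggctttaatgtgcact
C7 promoter (chr15:5063774-5064023, reverse strand): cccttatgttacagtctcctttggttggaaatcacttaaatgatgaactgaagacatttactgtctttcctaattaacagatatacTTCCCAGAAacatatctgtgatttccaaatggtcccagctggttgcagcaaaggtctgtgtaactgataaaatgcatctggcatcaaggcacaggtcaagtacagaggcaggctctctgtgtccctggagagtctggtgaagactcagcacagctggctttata
C3 promoter (chr17:57228137-57228386, reverse strand): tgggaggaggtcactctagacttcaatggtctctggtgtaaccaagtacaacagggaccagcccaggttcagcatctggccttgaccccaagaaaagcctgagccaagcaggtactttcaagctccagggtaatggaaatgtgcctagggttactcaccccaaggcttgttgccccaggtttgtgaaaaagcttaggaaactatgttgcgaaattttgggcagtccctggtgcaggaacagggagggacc
Vtn promoter (chr11:78498870-78499119, forward strand): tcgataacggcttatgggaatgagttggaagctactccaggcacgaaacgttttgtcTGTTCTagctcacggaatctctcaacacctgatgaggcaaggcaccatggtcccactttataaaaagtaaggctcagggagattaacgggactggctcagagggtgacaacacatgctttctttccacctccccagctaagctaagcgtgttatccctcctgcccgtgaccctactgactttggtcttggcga
TGTTCT was matched once before Serpina3n, beginning 183 bases before its RefSeq start and on the opposite strand. It was also matched once before Vtn, beginning 193 bases before its RefSeq start. Of the bases shown for Vtn, the last 29 lie in its GENCODE exons, because GENCODE starts the gene before the RefSeq start. C7 held TTCNNNGAA beginning 164 bases before its start, and C3 held none of the 3 motifs. TGTTCT was found before 6 member genes (C1qb, C1qc, F10, F8, Serpina3n and Vtn), in 6 of the 28 promoters of members, against 16.1% of all 32851 promoters in the table. TTCNNNGAA was found in 2 of 28 (C7 and Pros1) against 7.02%, and the ISRE letters in 1 of 28 (Cd59a) against 2.98%. A match describes the letters and not a bound site.

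In the C1 complex of the classical pathway, counted with its inhibitor, all 5 members had ratios above 1 and 2 were called higher. The size rule called 10.5% of all genes higher and 8.77% lower. C1q, the recognition unit that binds antibody and dying cells, is assembled from the chains of C1qa, C1qb and C1qc, and macrophages are its main source. C1qa had 812 counts (47.0 CPM) with TAC alone and 1279 (74.7 CPM) with dioscin, a ratio of 1.59 (1.45 to 1.74). C1qb had 705 counts (40.8 CPM) with TAC alone and 1100 (64.3 CPM) with dioscin, a ratio of 1.57 (1.43 to 1.73). C1qc had 454 counts (26.3 CPM) with TAC alone and 841 (49.1 CPM) with dioscin, a ratio of 1.87 (1.67 to 2.099), just under the 2-fold limit. The 3 chains thus lay between 1.57 and 1.87, and the intervals of all 3 overlapped. Among 10 macrophage markers that are no members, 2 were higher and 2 lower, with a summed level of 158 CPM with TAC alone and 288 CPM with dioscin. The most abundant of them by their mean over both libraries, Csf1r and Mrc1, had ratios of 1.10 (1.01 to 1.21) and 1.34 (1.21 to 1.49). Lyve1 and Cd163, markers of resident macrophages, were higher at 9.70 (8.10 to 11.7) and 3.83 (3.33 to 4.42), and in the dioscin library Lyve1 was the highest of the 10, at 73.6 CPM. With TAC alone Lyve1 was at 7.59 CPM, and Cd163 was at 14.7 CPM with TAC alone and 56.1 CPM with dioscin. Most of the difference between the summed levels lay in these 2 genes. Cx3cr1 was 4.06-fold lower (2.89 to 5.80) and Fcgr1 2.25-fold lower (1.54 to 3.36).

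C1ra and Serping1, the protease of C1 and its inhibitor, were both higher. C1ra encodes the protease that activates C1s (ENSMUSG00000055172.10; chromosome 6, 124512405 to 124523443), and it had 290 counts (16.8 CPM) with TAC alone and 615 (35.9 CPM) with dioscin, a ratio of 2.14 (1.86 to 2.47). Serping1 encodes C1 inhibitor, which also restrains plasma kallikrein and factor XII (ENSMUSG00000023224.12; chromosome 2, 84765387 to 84775444). It had 967 counts (56.0 CPM) with TAC alone and 2864 (167 CPM) with dioscin, a ratio of 2.99 (2.78 to 3.22). C1s1, the substrate of C1r and not a member, had a ratio of 1.07 (0.995 to 1.16). The intervals of C1ra and C1s1 did not overlap. C1rb, a close copy of C1ra, held 2 counts in each library. C1ra lost its call, at a log2 ratio of 0.89, when libraries were scaled by their counts without mitochondrial genes. In the lectin pathway, Masp1 encodes a protease carried by mannose-binding lectin and related lectins (ENSMUSG00000022887.9; chromosome 16, 23449417 to 23520815), and its splice forms were counted together. It had 124 counts (7.18 CPM) with TAC alone and 373 (21.8 CPM) with dioscin, a ratio of 3.03 (2.47 to 3.75).

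Among the genes of the C3 and C5 convertases, the enzymes that cleave C3 and C5, C3 and C2 were higher. C2 supplies the protease of the classical convertase (ENSMUSG00000024371.14; chromosome 17, 34862604 to 34898265). It had 14 counts (0.811 CPM) with TAC alone and 55 (3.21 CPM) with dioscin, a ratio of 3.96 (2.17 to 7.72), and the wide interval reflects the low counts. C4b, which anchors the same convertase, had 961 counts (55.7 CPM) with TAC alone and 1702 (99.4 CPM) with dioscin, a ratio of 1.79 (1.65 to 1.94) that did not pass the size rule. Its near-identical copy C4a held 20 and 14 counts, and reads of the pair can be assigned to either. Cfb, the protease of the alternative convertase, held 1 count with TAC alone and 0 with dioscin. A read-through gene on the same strand, Gm20547, covers 79.5% of the exonic length of Cfb and 42.8% of that of C2. Gm20547 itself held 0 counts in both libraries, and HTSeq can put reads that overlap more than 1 gene in its ambiguous class, so the counts of Cfb and C2 may miss reads and Cfb cannot be judged from these files. Cfp encodes properdin, which stabilises the alternative convertase and is made by leukocytes. It had 366 counts (21.2 CPM) with TAC alone and 284 (16.6 CPM) with dioscin, a ratio of 0.783 (0.668 to 0.917). Properdin was thus below 1 beside a C3 ratio above 4, although its interval stayed within the 2-fold limit.

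Neither C3ar1 nor C5ar1, receptors of the attractant fragments, passed the size rule. C3ar1, the receptor of C3a, had 83 counts (4.81 CPM) with TAC alone and 106 (6.19 CPM) with dioscin, a ratio of 1.29 (0.958 to 1.74), and the interval included 1. C5ar1, the main receptor of C5a on myeloid cells, had 95 counts (5.50 CPM) with TAC alone and 144 (8.41 CPM) with dioscin, a ratio of 1.53 (1.17 to 2.003). C5ar2, the other receptor of C5a and not a member, was called higher, with 28 counts (1.62 CPM) with TAC alone and 75 (4.38 CPM) with dioscin, a ratio of 2.70 (1.73 to 4.33). In the terminal pathway, C6 joins the pore just before C7. C6 had 13 counts (0.753 CPM) with TAC alone and 22 (1.29 CPM) with dioscin, a ratio of 1.71 (0.823 to 3.69), so a difference in C6 was not detectable at this depth.

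The regulators that protect host cells went in both directions. Cd59a, the membrane-anchored protein that blocks pore assembly, had 1480 counts (85.7 CPM) with TAC alone and 2214 (129 CPM) with dioscin, a ratio of 1.51 (1.41 to 1.61). Its close copy Cd59b was called higher at 5 and 21 counts, and reads of the pair can be assigned to either. Cd55, which takes convertases apart, had 184 counts (10.7 CPM) with TAC alone and 339 (19.8 CPM) with dioscin, a ratio of 1.86 (1.55 to 2.24). Its copy Cd55b held 0 counts in both libraries. Vtn encodes vitronectin, an adhesive plasma and matrix protein that blocks the terminal complex and binds the plasminogen activator inhibitor (ENSMUSG00000017344.4; chromosome 11, 78499091 to 78502324). It had 736 counts (42.6 CPM) with TAC alone and 308 (18.0 CPM) with dioscin and was 2.37-fold lower (2.07 to 2.71), the opposite direction to Clu, whose protein acts at the same step. Cfi, the protease that inactivates C3b and C4b, held 1 count in each library. A count that low sets no direction, since the limit of 3 counts was 0.174 CPM with TAC alone and 0.175 CPM with dioscin.

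On a scale per transcript length, clusterin took the largest share of the complement transcripts of the dioscin library. Transcript levels per length (TPM) were computed from the counts and the merged exon length of each gene, and they serve here to compare genes within a library. In the TAC library, Cd59a, C1qa and C1qb led the complement members at 81.6, 78.0 and 64.7 TPM, with Clu next at 61.4. In the dioscin library Clu led at 463 TPM, before C3 at 149, and Serping1, C1qa and Cd59a lay together at 127, 127 and 126. Clu and C3 made up 19.7% of the summed TPM of the 20 complement members with TAC alone and 48.5% with dioscin. The C1q chains made up 34.5% and 21.9%. The summed CPM of the 20 genes was 3.21 times as high in the dioscin library, and 1.74 times without Clu and C3.

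**Figure D3:**
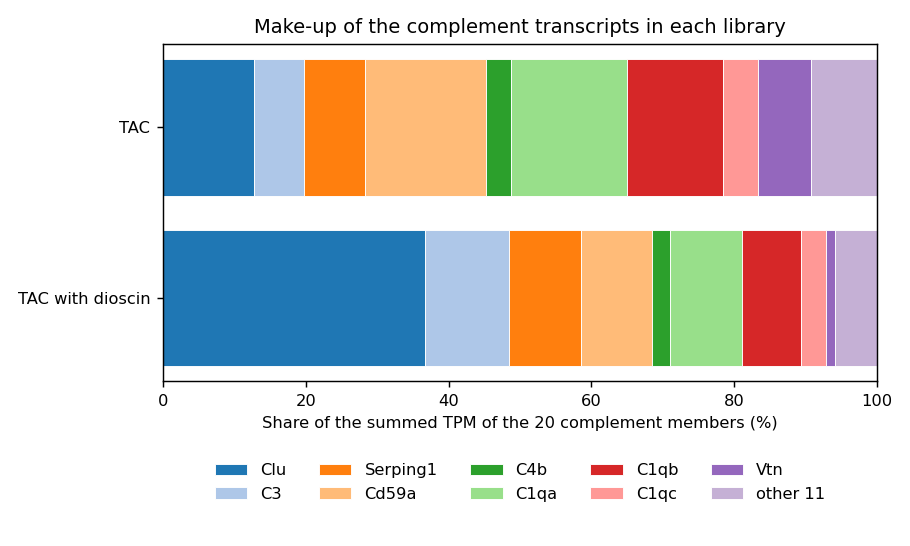
Share (%) of each gene in the summed TPM of the 20 complement members, 1 bar per library. Clu is 12.8% of the bar of the TAC library and 36.7% of that of the library of TAC with dioscin, and the shares of Cd59a, the C1q chains and Vtn are smaller in the second.

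In coagulation, 9 of 11 members reached 1 CPM, all with ratios above 1 (F13a1 not under the scaling without mitochondrial genes). F2r, Procr and F8 were higher, against 10.5% of all genes, and F8 could be called in that direction only. F2r encodes the thrombin receptor PAR1 (ENSMUSG00000048376.6; chromosome 13, 95601803 to 95618487). It had 547 counts (31.7 CPM) with TAC alone and 1492 (87.2 CPM) with dioscin, a ratio of 2.75 (2.49 to 3.04). F8, the cofactor of factor IX made by endothelial cells (ENSMUSG00000031196.13; chromosome X, 75172715 to 75382615), had 13 counts (0.753 CPM) with TAC alone and 34 (1.99 CPM) with dioscin, a ratio of 2.64 (1.36 to 5.45) on few reads. F3, tissue factor, which starts coagulation, had 180 counts (10.4 CPM) with TAC alone and 279 (16.3 CPM) with dioscin, a ratio of 1.56 (1.29 to 1.90) that did not pass. F13a1, the subunit that crosslinks fibrin and a gene of resident macrophages, had 669 counts (38.7 CPM) with TAC alone and 743 (43.4 CPM) with dioscin, a ratio of 1.12 (1.01 to 1.25). F13a1 thus lay nearer to 1 than the C1q chains, and the intervals did not overlap. Its log2 ratio turned to -0.04 under the scaling without mitochondrial genes. F5 held 7 and 8 counts and F10 6 and 8, too few to set a direction.

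Of the inhibitors of coagulation and the relatives of protein S, 1 of 5 was higher, against 10.5% of all genes. Procr encodes the endothelial protein C receptor (ENSMUSG00000027611.12; chromosome 2, 155751117 to 155755471). It had 30 counts (1.74 CPM) with TAC alone and 113 (6.60 CPM) with dioscin, a ratio of 3.80 (2.52 to 5.89). Thbd, thrombomodulin, which works with Procr to activate protein C, had 1214 counts (70.3 CPM) with TAC alone and 1726 (101 CPM) with dioscin, a ratio of 1.43 (1.33 to 1.54). The intervals of these partners did not overlap. Tfpi, the inhibitor of tissue factor, had 907 counts (52.5 CPM) with TAC alone and 1559 (91.1 CPM) with dioscin, a ratio of 1.73 (1.60 to 1.88). Its interval overlapped that of its target F3. Pros1 encodes protein S, the cofactor of protein C, and Gas6 its relative that activates the receptors Axl, Mertk and Tyro3. Pros1 had 697 counts (40.4 CPM) with TAC alone and 821 (48.0 CPM) with dioscin, a ratio of 1.19 (1.07 to 1.32). Gas6 had 2853 counts (165 CPM) with TAC alone and 3418 (199.7 CPM) with dioscin, a ratio of 1.21 (1.15 to 1.27), and it was the most abundant member of the TAC library per length, at 112 TPM with TAC alone and 138 TPM with dioscin. Both stayed within 1.5-fold. The endothelial markers, beside which Procr, Thbd, F8 and Tfpi are read, had 1 of 7 higher and 1 lower. These counts are near the shares of all genes called higher (10.5%) and lower (8.77%). The summed level of the 7 was 1632 CPM with TAC alone and 1483 CPM with dioscin, and single genes differed more than the sum. Pecam1 and Egfl7 were the most abundant by their mean over both libraries. Pecam1 was higher, at 221 CPM with TAC alone and 484 CPM with dioscin. Egfl7 was lower, at 427 CPM with TAC alone and 155 CPM with dioscin. The other 5 were not called.

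None of the 3 plasminogen activation genes passed the size rule. Plat, tissue plasminogen activator, had 416 counts (24.1 CPM) with TAC alone and 618 (36.1 CPM) with dioscin, a ratio of 1.499 (1.32 to 1.70). Plau, urokinase, had 86 counts (4.98 CPM) with TAC alone and 62 (3.62 CPM) with dioscin, a ratio of 0.727 (0.516 to 1.02) whose interval included 1. Its receptor Plaur had 50 counts (2.90 CPM) with TAC alone and 75 (4.38 CPM) with dioscin, a ratio of 1.51 (1.04 to 2.21). The intervals of Plat and Plau did not overlap, so the activators stood apart by more than counting error within these libraries.

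Of the serpins and A2m, 2 of 4 were higher, against 10.5% of all genes. Besides Serpina3n, Serpine2 was called, which encodes protease nexin-1, an inhibitor of thrombin and plasminogen activators (ENSMUSG00000026249.10; chromosome 1, 79794197 to 79861180). It had 316 counts (18.3 CPM) with TAC alone and 716 (41.8 CPM) with dioscin, a ratio of 2.29 (1.9997 to 2.62), and it lost the call, at a log2 ratio of 0.99, under the scaling without mitochondrial genes. Serpinf1, pigment epithelium-derived factor, a serpin that does not inhibit proteases and is made by fibroblasts, had 397 counts (23.0 CPM) with TAC alone and 749 (43.8 CPM) with dioscin, a ratio of 1.90 (1.68 to 2.16) just under the limit. A2m, the broad protease trap, had 19 counts (1.10 CPM) with TAC alone and 26 (1.52 CPM) with dioscin, a ratio of 1.38 (0.735 to 2.64). The 8 other genes of the Serpina3 cluster counted were looked up after the value of Serpina3n was seen. Serpina3h was lower at 18 and 4 counts and none was called higher. Serpina3h reached 1 CPM in the TAC library alone, so it could be called lower only. Serpina3c held 0 and 17 counts, and at 0.993 CPM with dioscin it missed the 1 CPM filter and could not be called. Serpina3g held 26 and 30, and reads of such close relatives can be assigned to the wrong gene.

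**Figure D4:**
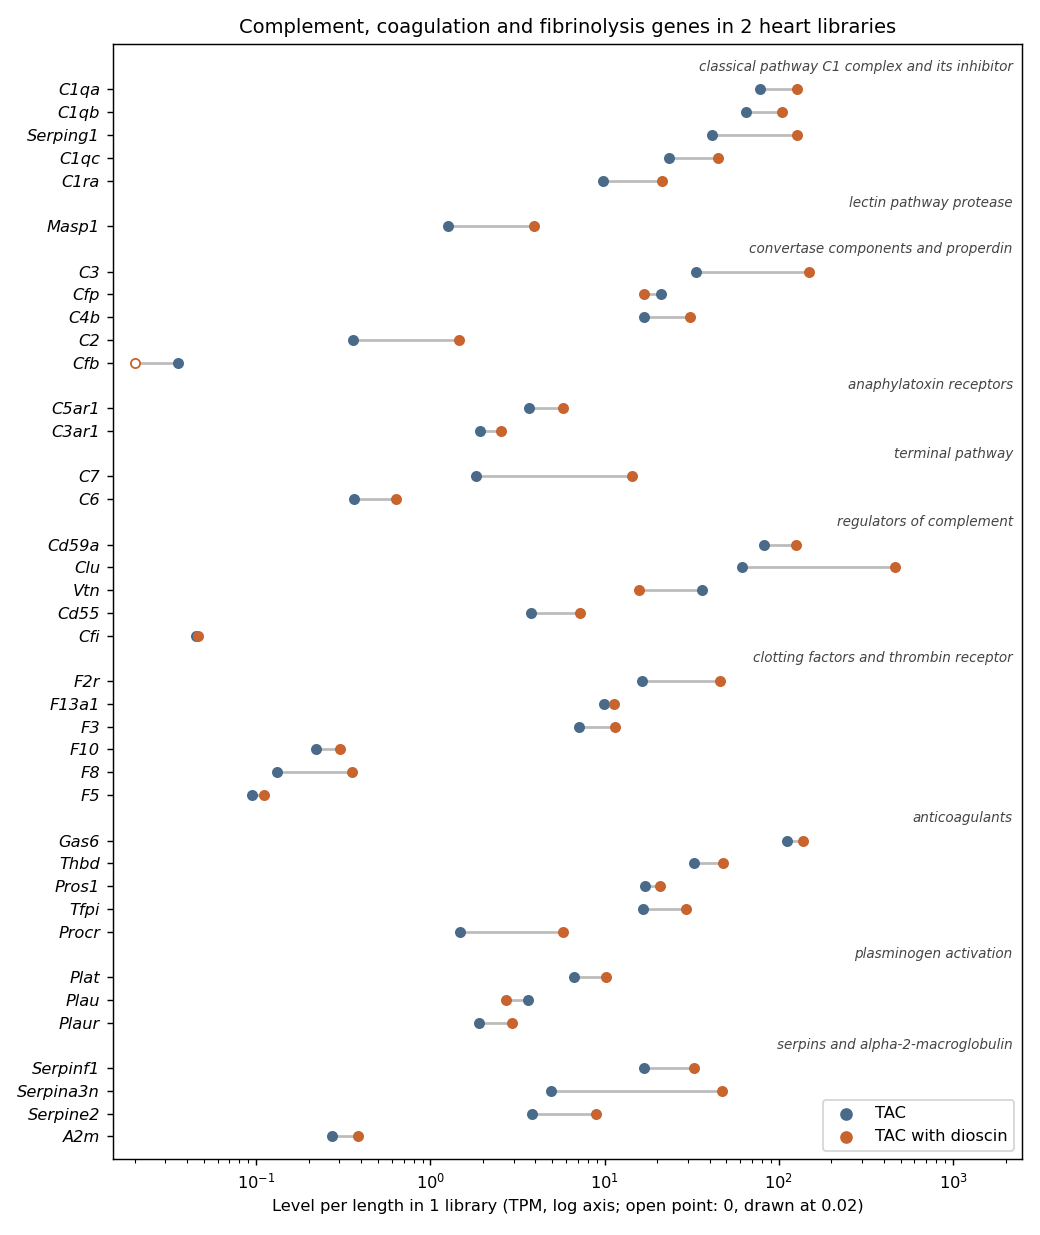
Level per length (TPM, log axis) of all 38 members in the TAC library and in the library of TAC with dioscin, 1 point per library, grouped by role. Gas6 is highest in the TAC library and Clu in the dioscin library, and Cfb, Cfi and F5 have the lowest levels in both.

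Of 77 other genes of the same systems, 40 reached 1 CPM, and 12 were higher and 6 lower, with a median log2 ratio of 0.28. Over all genes the rule called 10.5% higher and 8.77% lower. Of those called here, 6 of the 12 higher genes (C1rl, Cd59b, Cfd, Pzp, Serpina1b and Vsig4) and 4 of the 6 lower ones (Bdkrb2, F2rl3, F7 and Itgax) reached 1 CPM only in the library where they were high, so the call could go in that direction alone. In complement, 8 of 19 were higher and 1 lower. Cfd, adipsin, the fat-derived protease that cleaves factor B, had 2 counts (0.116 CPM) with TAC alone and 275 (16.1 CPM) with dioscin, a ratio of 139 (38.04 to 1151). Vsig4, the complement receptor of resident macrophages, had 3 counts (0.174 CPM) with TAC alone and 55 (3.21 CPM) with dioscin, a ratio of 18.5 (6.01 to 92.4). Itgax, the integrin chain of complement receptor CR4 on dendritic cells, had 100 counts (5.79 CPM) with TAC alone and 14 (0.818 CPM) with dioscin and was 7.08-fold lower (4.03 to 13.4).

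In coagulation 1 of 12 other genes was higher and 2 were lower, and in fibrinolysis 3 of 9 were higher and 3 lower. The coagulation count of 1 higher gene is near the share over all genes. Pzp, a relative of A2m, had 6 counts (0.347 CPM) with TAC alone and 66 (3.86 CPM) with dioscin, a ratio of 11.1 (4.84 to 31.3). F2rl3, the thrombin receptor PAR4, had 26 counts (1.51 CPM) with TAC alone and 6 (0.351 CPM) with dioscin and was 4.30-fold lower (1.73 to 12.8). Plgrkt, a plasminogen receptor, had 2156 counts (125 CPM) with TAC alone and 980 (57.3 CPM) with dioscin and was 2.18-fold lower (2.02 to 2.35). Serpinh1, a collagen chaperone that is a serpin by sequence only, had 5146 counts (298 CPM) with TAC alone and 2126 (124 CPM) with dioscin and was 2.40-fold lower (2.28 to 2.52). The receptors of Gas6 showed no call, with ratios of 1.37 (1.28 to 1.46) for Axl, 1.03 (0.905 to 1.18) for Mertk and 0.614 (0.408 to 0.914) for Tyro3.

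Reads of clotting genes expressed mainly in the liver were few for some and not for others. Over 9 genes chosen after their values were seen (F2, F9, F11, F13b, Proc, Fga, Fgb, Fgg and Plg) the TAC library held 0 counts and the dioscin library 6, with at most 2 for a gene. Serpinc1, antithrombin, held 314 counts with TAC alone and 218 with dioscin, and 34.4% of its exonic length overlaps Zbtb37 on the opposite strand. F7 held 18 and 4, Klkb1 8 and 4, and F12 6 and 0. Of the late complement genes, C8a, C8b, C9 and Hc (the gene of C5) summed to 0 and 3 counts, whereas C8g held 61 and 50. The hepatocyte markers above held 26 counts of Alb and 1167 of Ahsg in the dioscin library.

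Of 10 interferon response genes that are no members, none was higher and 5 were lower, against 10.5% and 8.77% of all genes. The median log2 ratio of the 10 was -1.10. The most abundant by their mean over both libraries, Stat2 and Oas2, were 2.65-fold lower (2.47 to 2.85) and 3.80-fold lower (3.49 to 4.15), whereas Gbp2 had a ratio of 1.12 (1.01 to 1.23). Of the markers of leukocytes that carry complement receptors, neutrophil genes were lower in 3 of the 3 that reached 1 CPM, with a summed level of 19.6 CPM with TAC alone and 5.43 CPM with dioscin. Among these, S100a8 was at 2.32 CPM with TAC alone and 0.701 CPM with dioscin. It reached 1 CPM in the TAC library alone, so it could be called lower only. Recruited monocyte genes had 1 of 4 lower and summed levels of 28.7 CPM with TAC alone and 18.0 CPM with dioscin. Platelet genes had 1 of 4 higher and summed levels of 19.2 CPM with TAC alone and 26.6 CPM with dioscin.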

How the data were processed

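The 38 members, the other gene lists and the rules were chosen with earlier results of these data known. Libraries were made from total RNA of frozen hearts with an Illumina TruSeq RNA kit, per the labels' protocols. Whether the reads mark strand is not given in the sources used here, and genes that overlap on either strand may share reads. The authors deposited unnormalized read counts for each gene, made with HISAT2 2.1.0 and HTSeq on mm10 per the submitters' processing notes. For HTSeq, its version, annotation release and strand setting were not given by the sources used here. The 5 lines that name no gene were left out of all sums, with 1.49% and 1.39% of all lines in overlapping genes and 38.2% and 36.5% with several alignments in the TAC and dioscin libraries. Symbols, coordinates and exon lengths came from GENCODE M21 on GRCm38, which matched 55141 of 55401 identifiers.

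Library sizes were scaled by TMM (edgeR 4.0.16, R 4.3.3). Ratios are of scaled counts, dioscin over TAC, with exact 95% Clopper-Pearson intervals that cover counting error only. Log2 ratios have 0.5 added to both counts. With 1 library a group, no replicate test was made. The text describes all members, up to 4 other pathway genes per direction by the interval bound farthest from 1, and the most abundant markers of some lists. One other pathway gene that this rule picks is not reported here. C1s1, C5ar2, Lyve1, Cd163, Cx3cr1, Fcgr1, Gbp2, the receptors of Gas6, the liver-made genes, C8g and the copies of members were named after their values were seen. The computation was tested on simulated counts. Other scalings (among them DESeq2 1.42.0 size factors), filters, pseudocounts, fold limits and gene types were tried.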

Additional observations from a re-analysis of the deposited data

How the results depend on the processing

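Of the 10 alternatives, 5 can change a ratio. The 4 other scalings move every log2 ratio by 1 common amount, well short of 2-fold, and a pseudocount of 2 pulls ratios toward 1. The 13 called members, each at least 2-fold from 1, could therefore not turn in direction, and none did. F13a1 turned to -0.04 and F5 to -0.0120 without mitochondrial genes in the scaling, and Cfi, at 1 count in each library, turned with 3 of the 4 other scalings. Under the scaling without mitochondrial genes 19 of 38 members left the counting interval of the reported ratio, under total gene counts 3, and under the other 3 of those alternatives 0. Scaling by total counts without mitochondrial genes moved the median log2 ratio of all genes to -0.21, from 0.01, and called 1275 genes higher and 2286 lower, against 1655 and 1377. Scaling by total gene counts called 1452 and 1634. Under the scaling without mitochondrial genes the median was 0.66 for complement members, 0.39 for fibrinolysis and serpin members, of which 1 stayed higher, and 0.083 for the other pathway genes. With the 5 CPM filter 5 of 25 other pathway genes were higher and 3 lower, against 1045 and 695 of all 11897 genes. With no filter the median of the other pathway genes was 0.49. C2 and F8 did not reach 5 CPM. A fold limit of 1.5 called 23 members higher, of which 14 of complement, 5 of coagulation and 4 of fibrinolysis and serpins. Over all 15697 genes that limit called 3187 higher and 2815 lower, so the calls rose there too. At a limit of 3 there were 7 higher, with 1 each of coagulation and of fibrinolysis and serpins, 0 lower among all members and among complement members, and 3 other pathway genes lower. Over all 15697 genes the limit of 3 called 781 higher and 554 lower. The causes were not tested. Leaving out a replicate was not possible with 1 library a group. No paired analysis was possible because each group has 1 library. Depth limits Cfb, Cfi, F5, F10, C6 and A2m, whose intervals include both 1 and a 2-fold difference.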

Other observations

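Several members are neighbours in the genome, and neighbours did not share a ratio in every case. The genes of the C1q chains lie within 3616 and 2851 bases of each other on chromosome 4, and their log2 ratios were 0.65 for C1qb, 0.90 for C1qc and 0.67 for C1qa. C6 and C7 are paralogs of the pore family, 173794 bases apart on chromosome 15, with log2 ratios of 0.75 and 2.92 and intervals of the ratio that did not overlap (0.823 to 3.69 and 5.66 to 10.5).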
